A study of Homo sapiens with 6 samples.

Results

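The genes described here are 47 enzymes and enzyme subunits of glycolysis, the pentose phosphate pathway and the tricarboxylic acid (TCA) cycle, with the pyruvate dehydrogenase complex, its kinases, pyruvate carboxylase and the malic enzymes ME1 and ME2. They were taken by symbol from a list of pathway members, not by a cut on their measured values. That list was chosen with earlier results of these data known. All 47 were found among the 58735 genes of the count table. RNA was sequenced from ARPE19, an established human retinal pigment epithelial (RPE) line. The 3 libraries named NC came from cells labelled WT, and the 3 libraries named OE CD51 ICD came from cells labelled as overexpressing CD51_ICD. CD51 is the integrin alpha V subunit, encoded by ITGAV, and ICD is not spelled out in the labels. The series title places the comparison in microglia-to-RPE signalling through SPP1 and ITGAV in dry macular degeneration. No treatment, dose or time is labelled, neither the promoter of the construct nor the number of clones is given, and no label says if libraries of one group are separate cultures, so each p-value speaks only for the variation seen among these 6 libraries.

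Glycolysis splits glucose into pyruvate in the cytosol, and lactate dehydrogenase can turn that pyruvate into lactate while restoring the NAD+ that glycolysis uses. Pyruvate dehydrogenase instead sends pyruvate into the mitochondrial TCA cycle, and its kinases switch that entry off, while the pentose phosphate pathway draws off glucose 6-phosphate to make NADPH and ribose. The RPE is known for sparing glucose for the photoreceptors and for burning lactate and other fuels in its mitochondria, and culture lines such as ARPE19 rely more on glycolysis.

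ITGAV itself was at 113, 92.7 and 89.4 CPM (counts over TMM-scaled library size) in NC and at 436, 536 and 371 CPM in OE CD51 ICD, and the counts cannot tell the construct from the cell's own gene. Total counts ran from 13616694 to 16934668 per library. Genes with a count numbered 19540 to 20178 in NC and 20230 to 20610 in OE CD51 ICD, and the 10 most abundant genes took 9.22 to 9.60% and 10.8 to 11.1% of counts. Both measures separated the groups, with an exact two-sided permutation p of 0.1, the smallest that 3 against 3 libraries allow, and their part in the results was not tested. Of the 16 RPE markers KRT8, KRT18, OTX2, MITF, PAX6, RLBP1, RDH5 and PMEL had counts in every library. So had LRAT, BEST1, SERPINF1 and TYRP1, with at most 25 counts in any. TYR and DCT had counts in only some libraries, and the defining markers RPE65 and TTR had none in any. Of the 10 RPE markers that could be tested 3 rose and 2 fell. Of 10 microglia and macrophage markers only CSF1R passed the low-count filter, at 38 to 70 counts in NC and 444 to 513 in OE CD51 ICD. P2RY12 had 0 counts in every library and PTPRC, AIF1, CD68, CX3CR1, TMEM119, CD14 and TYROBP had at most 3 in any, and ITGAM had 1 to 12. The part of CSF1R in the results was not tested. In bulk RNA, fewer cells of a kind and less RNA per cell cannot be told apart.

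All 47 enzyme genes passed the low-count filter, and with the construct 12 rose and 16 fell by edgeR's quasi-likelihood test at a Benjamini-Hochberg adjusted p under 0.05, with 19 not past it. Those are 25.5% and 34.0% of the enzymes, where 25.2% of all 13787 tested genes were higher and 25.8% lower. The libraries of the groups did not overlap in 31 of the 47, or in 28 of the 28 called and 3 of the 19 others, against 57.5% of all tested genes. The median log2 fold change of the 47 was -0.06, beside 0.01 over all genes tested. A change of at least 2-fold was seen in 2 enzymes that rose, PFKFB4 and LDHA, and in 1 that fell, PC. Of all 13787 tested genes, 950 rose and 804 fell by at least 2-fold. Of the 28 calls, 18 held under each of 21 alternative processings and 10 were lost under at least 1 of them. Those 10 are named with their values where they are described.

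**Figure D1:**
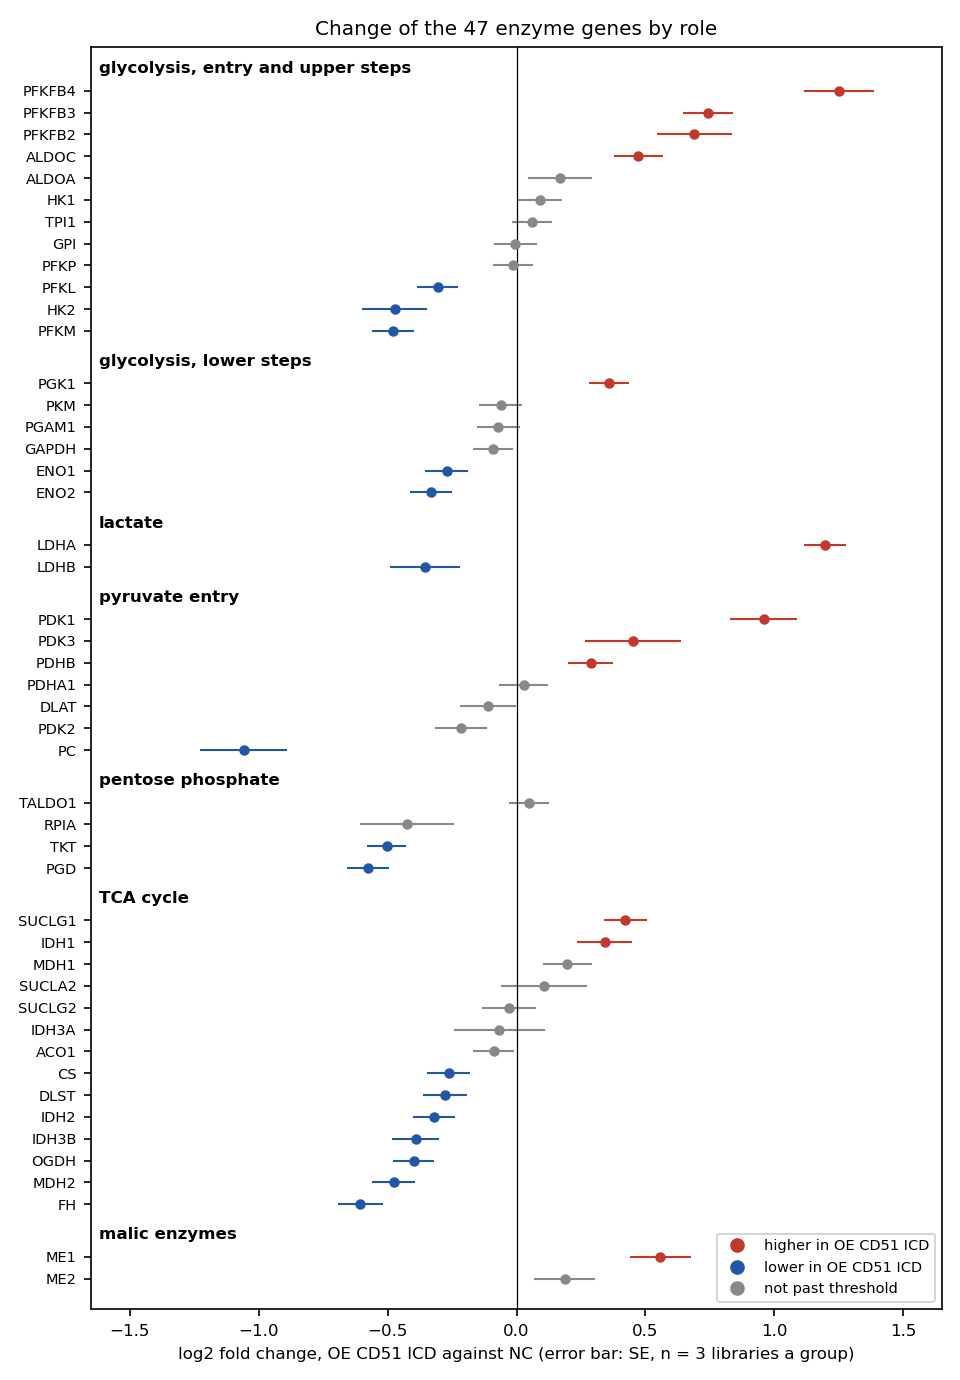
Log2 fold change of OE CD51 ICD against NC (x axis) for each of the 47 enzyme genes, grouped by role. Points are edgeR estimates from 3 libraries a group, bars are SE, and colour gives the call. The changes run from -1.06 for PC to 1.25 for PFKFB4.

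Sequence before the start site is shown for 6 of the enzymes, to let the hypoxia response core be seen where it stood before higher and lower enzymes. The RefSeq promoter table (GRCh38.p14) matched 45 of the 47 genes, PFKFB2 and OGDH not among them, and the 250 bases before each start were searched on both strands. The core of the hypoxia response element, read here as ACGTG or GCGTG, stood in 10 of the 11 higher enzymes (90.9%), 9 of 15 lower (60.0%) and 9 of 19 not past the threshold (47.4%), and in 43.1% of all 27305 promoters of the table. The median number of cores was 2, 1 and 0 in those 3 sets. Stretches are printed 5′ to 3′ up to the first base that GENCODE 29 places in an exon, with the cores in capitals (CACGT and CACGC are the same cores on the other strand).
LDHA, higher, chr11:18394313-18394387, plus strand: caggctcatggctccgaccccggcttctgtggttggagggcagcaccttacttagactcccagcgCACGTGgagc
PGK1, higher, chrX:78103998-78104173, plus strand: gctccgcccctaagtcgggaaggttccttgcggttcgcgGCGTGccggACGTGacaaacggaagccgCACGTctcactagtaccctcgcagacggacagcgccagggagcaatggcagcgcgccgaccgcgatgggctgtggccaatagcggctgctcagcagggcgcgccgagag
PDHB, higher, chr3:58433858-58434082, minus strand: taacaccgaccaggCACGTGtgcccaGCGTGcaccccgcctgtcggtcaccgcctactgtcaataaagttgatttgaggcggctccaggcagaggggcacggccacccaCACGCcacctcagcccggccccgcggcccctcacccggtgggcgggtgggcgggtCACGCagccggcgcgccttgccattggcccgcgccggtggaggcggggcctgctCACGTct
PDK1, higher, chr2:172555123-172555372, plus strand: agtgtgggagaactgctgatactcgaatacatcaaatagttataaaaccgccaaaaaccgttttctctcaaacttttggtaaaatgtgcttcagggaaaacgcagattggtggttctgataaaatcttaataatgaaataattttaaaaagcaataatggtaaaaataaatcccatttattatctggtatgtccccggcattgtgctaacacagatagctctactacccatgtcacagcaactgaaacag
PGD, lower, chr1:10398814-10399043, plus strand: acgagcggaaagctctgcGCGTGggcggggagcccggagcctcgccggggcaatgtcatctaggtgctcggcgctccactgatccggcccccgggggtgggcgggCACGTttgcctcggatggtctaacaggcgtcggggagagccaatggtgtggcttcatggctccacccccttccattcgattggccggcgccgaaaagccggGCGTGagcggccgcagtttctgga
PC, lower, chr11:66958384-66958633, minus strand: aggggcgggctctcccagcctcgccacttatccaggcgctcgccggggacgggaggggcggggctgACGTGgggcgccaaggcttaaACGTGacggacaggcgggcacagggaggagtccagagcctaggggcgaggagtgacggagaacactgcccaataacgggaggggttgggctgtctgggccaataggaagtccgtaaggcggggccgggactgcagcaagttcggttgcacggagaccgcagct

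The full 250 bases held 5 cores for LDHA, 6 for PDHB, 3 for PGK1 and for PGD, 2 for PC and 0 for PDK1. PDK1 was thus higher with no core in its window, and PGD and PC were lower with cores. The E-box CACGTG, which contains the core on both strands and so counts as 2 of them, stood before LDHA, ALDOC and PDHB among the higher enzymes, before 0 of the 15 lower ones and before GAPDH of the rest, and in 6.49% of all promoters. The searched windows reach into annotated exons. GENCODE 29 places 250 of the 250 bases of ALDOC, 175 of those of LDHA and 25 of those of PDHB in exons. All ALDOC cores and the LDHA cores beyond the printed stretch thus lie in exon sequence. All 250 bases were also in exons for the lower enzymes ENO1, ENO2 and HK2. The same held for DLAT, GPI, MDH1, ME2, PGAM1, PKM and TPI1, which did not pass the threshold. ALDOC was the only higher enzyme with a window wholly in exons. The part of this difference in the shares was not tested. The GC box GGGCGG stood in 72.7% of the higher, 73.3% of the lower and 68.4% of the other enzymes, and in 42.3% of all promoters. The CCAAT box stood in 36.4%, 46.7% and 36.8% of those sets, and in 33.0% of all. A match is a run of letters in this window and not a measured site, and no test was made of these shares.

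Levels between genes are compared in FPKM, the deposited counts per gene length and library. GAPDH was the highest of the enzymes in control cells at 1838 ± 53.1 FPKM (SD, n = 3), followed by ENO1 at 1030 ± 51.5, PKM at 619 ± 37.4, TPI1 at 500 ± 11.3 and PGAM1 at 476 ± 33.6. TKT at 228 ± 2.97 FPKM was the highest outside glycolysis. PFKP at 199 ± 3.70 and LDHA at 199 ± 22.4 FPKM, next in order, did not differ beyond their spread, and PGK1 at 184 ± 4.03 and TALDO1 at 148 ± 7.24 FPKM closed the group above 100 FPKM. The lowest were IDH3A at 1.11 ± 0.111 and PDK1 at 0.935 ± 0.0925 FPKM. This order rests on annotated gene lengths, such as 14883 bases for PDK1 and 4951 for PDK3. By mean CPM in NC, PDK1 at 14.0 lay above IDH3A at 7.63 and PDK3 at 5.67. Of the 10 enzymes at 100 FPKM or more, 2 rose and 2 fell, with a median absolute log2 fold change of 0.081. Of the 22 between 10 and 100 FPKM, 4 rose and 11 fell, with a median of 0.314, and of the 15 under 10 FPKM, 6 rose and 3 fell, with a median of 0.425.

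**Figure D2:**
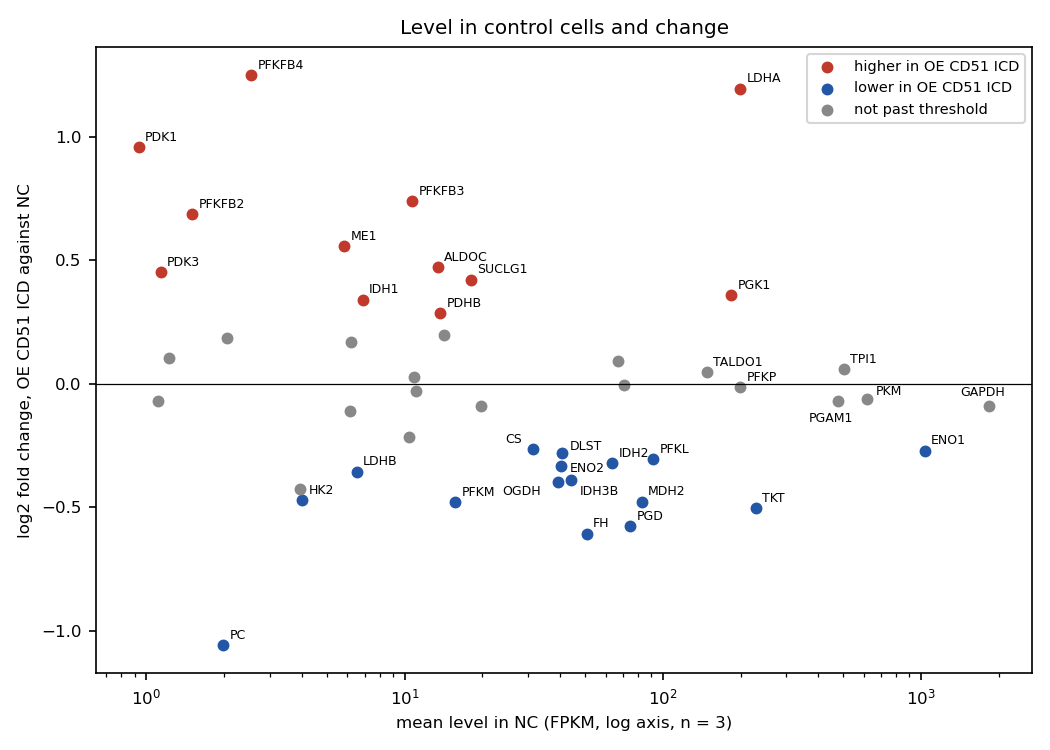
Mean level in NC in FPKM (log x axis, n = 3 libraries) against log2 fold change (y axis) for the 47 enzyme genes, coloured by call. LDHA is the only enzyme above 100 FPKM with a change beyond 1 in either direction, and the others with such a change, PFKFB4 and PC, were at 2.55 and 1.98 FPKM.

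Among the 12 genes of glucose entry and upper glycolysis, 4 rose and 3 fell. The rises were in the 3 PFKFB genes and ALDOC, and the falls in HK2, PFKL and PFKM. The PFKFB enzymes make or break down fructose 2,6-bisphosphate, the strongest activator of phosphofructokinase. PFKFB4 (ENSG00000114268, chr3:48517684-48562015) was at 13.2, 14.7 and 19.1 CPM in NC and at 35.1, 32.4 and 44.1 CPM in OE CD51 ICD, 2.38-fold higher (log2 fold change 1.25, SE 0.14, adjusted p = 6.68e-09). PFKFB3 was at 59.7, 60.0 and 77.9 CPM in NC and at 105, 109 and 117 CPM in OE CD51 ICD, 1.67-fold higher (log2 fold change 0.74, SE 0.10, adjusted p = 1.74e-07). Every OE CD51 ICD library lay above every NC library for both, and NC replicate 3 was the highest control for both.

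PFKFB2 was at 13.7, 14.1 and 18.6 CPM in NC and at 23.4, 30.3 and 21.0 CPM in OE CD51 ICD (log2 fold change 0.69, SE 0.15, adjusted p = 0.000215). It shares 3.09% of its exon bases with YOD1 on the opposite strand, which had 67.0% as many counts and a log2 fold change of 0.85, and without stated strand use their reads cannot be told apart. ALDOC, the aldolase C gene, rose 1.39-fold from 37.2, 39.2 and 42.3 CPM to 54.0, 56.6 and 54.1 CPM (log2 fold change 0.47, SE 0.10, adjusted p = 0.000138), again with no overlap between groups. Its paralogue ALDOA, the main aldolase of most tissues, was at 26.3, 22.4 and 24.4 CPM against 25.5, 24.5 and 32.4 CPM, which missed the threshold (adjusted p = 0.261). ALDOA shares 42.3% of its exon bases with AC093512.2 on the same strand, which had 18.2% as many counts and a log2 fold change of -0.995 (adjusted p = 0.00148). The sources used here do not say how reads of both were counted, and both the level and the change of ALDOA are uncertain.

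Hexokinases trap glucose in the cell as glucose 6-phosphate. HK2, the inducible hexokinase, was at 23.5, 22.7 and 27.4 CPM in NC and at 17.6, 16.2 and 19.2 CPM in OE CD51 ICD, 1.39-fold lower (log2 fold change -0.47, SE 0.13, adjusted p = 0.00246). HK1, the general hexokinase and the higher of the pair, was at 418, 390 and 464 CPM against 451, 409 and 495 CPM and did not pass (adjusted p = 0.381, 95% interval of the fold 0.950 to 1.20). HK2 thus lay wholly below its controls while the HK1 groups overlapped. GPI, which converts glucose 6-phosphate to fructose 6-phosphate, and TPI1, which interconverts the triose phosphates, had overlapping groups and log2 fold changes of -0.01 and 0.06.

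Phosphofructokinase, the committed step of glycolysis, is built from platelet, liver and muscle subunits. PFKM, the muscle subunit, fell from 115, 119 and 113 CPM to 83.4, 83.3 and 81.8 CPM (log2 fold change -0.48, SE 0.08, adjusted p = 1.36e-05). PFKL, the liver subunit, fell from 843, 804 and 827 CPM to 674, 607 and 720 CPM (log2 fold change -0.31, SE 0.08, adjusted p = 0.0018), a call lost when each library's trend with GC content was removed (log2 fold change -0.06, adjusted p = 0.384). PFKP, the platelet subunit and the most abundant, was at 981, 951 and 980 CPM against 955, 914 and 1015 CPM and did not pass (log2 fold change -0.01, adjusted p = 0.893), while with the GC trend removed it was at 0.14 with an adjusted p of 0.0368. Both lesser subunits were thus lower in every OE CD51 ICD library, and the groups overlapped for the main one. PFKM shares 8.58% of its exon bases with SENP1 on the opposite strand, which had 7.11% as many counts.

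In the 6 genes of lower glycolysis, from glyceraldehyde 3-phosphate to pyruvate, 1 rose and 2 fell. PGK1, phosphoglycerate kinase, makes the first ATP of the pathway and was at 1018, 1005 and 1043 CPM in NC and at 1296, 1232 and 1404 CPM in OE CD51 ICD, 1.28-fold higher (log2 fold change 0.36, SE 0.08, adjusted p = 0.000271). All 3 of its OE CD51 ICD libraries exceeded all controls, and with the GC trend removed the change was 0.15 and no longer past the threshold (adjusted p = 0.103). ENO2, neuronal enolase, fell from 171, 164 and 189 CPM to 133, 138 and 145 CPM (log2 fold change -0.33, SE 0.08, adjusted p = 0.00112). ENO1, the main enolase, was at 5614, 5165 and 5640 CPM in NC and at 4460, 4095 and 5058 CPM in OE CD51 ICD (log2 fold change -0.27, SE 0.08, adjusted p = 0.0076). Its groups did not overlap, but the call was lost without OE CD51 ICD replicate 1 (adjusted p = 0.0542) or replicate 2 (adjusted p = 0.0602) and by limma on log2(FPKM + 1) (adjusted p = 0.0616).

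The other 3 lower glycolytic genes did not pass. GAPDH, often used as a reference gene, was at 5596, 5345 and 5618 CPM in NC and at 5019, 4908 and 5615 CPM in OE CD51 ICD (adjusted p = 0.347, 95% interval of the fold 0.844 to 1.04). PKM, pyruvate kinase, was at 5644, 5000 and 5401 CPM against 5047, 4681 and 5651 CPM (adjusted p = 0.56, 95% interval of the fold 0.857 to 1.07). PGAM1, phosphoglycerate mutase, had a log2 fold change of -0.07. The groups overlapped for each of the 3.

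LDHA carried the largest change among the abundant enzymes. This gene (ENSG00000134333, chr11:18394388-18408425) encodes the lactate dehydrogenase subunit that favours lactate formation. It was at 1170, 1164 and 1401 CPM in NC and at 2791, 2845 and 2922 CPM in OE CD51 ICD, 2.29-fold higher (log2 fold change 1.20, SE 0.08, adjusted p = 3.98e-13). The lowest OE CD51 ICD library thus lay far above the highest control. LDHA lies on chromosome 11, where the 792 tested genes had a median log2 fold change of 0.21 with 40.4% higher and 17.3% lower, and the part of that shift in the LDHA change was not tested. The other chromosome 11 enzymes were PC, which fell, and DLAT and TALDO1, which did not pass.

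LDHB, the subunit that favours pyruvate formation, was at 19.7, 19.4 and 19.7 CPM in NC and at 17.5, 15.7 and 12.8 CPM in OE CD51 ICD (log2 fold change -0.36, SE 0.14, adjusted p = 0.0306). All 3 OE CD51 ICD libraries were lower than all controls. The call did not survive 7 of the 21 alternatives, among them leaving out any one NC library (adjusted p = 0.0611, 0.0612 and 0.0549) or OE CD51 ICD replicate 2 (0.0508) or 3 (0.15). LDHB shares 33.4% of its exon bases with AC010197.2 on the same strand, which had 0 counts, so its level is uncertain.

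**Figure D3:**
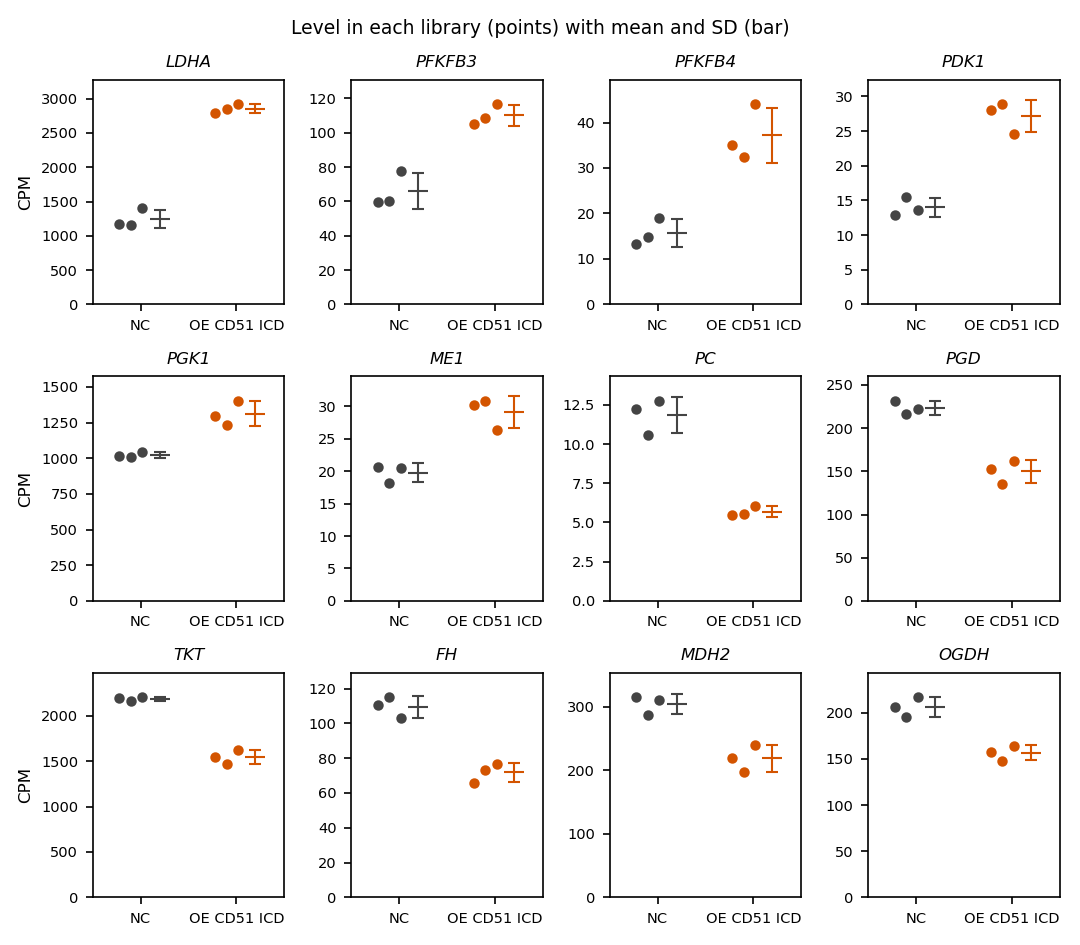
CPM (y axis, from 0) of 12 enzyme genes in each of the 3 NC and 3 OE CD51 ICD libraries, as points, with the group mean and SD as bars. The 12 were picked from the 28 called enzymes, whose groups were all apart, so no panel shows an overlap. Over all tested genes the groups were apart in 57.5%. LDHA, PFKFB3, PFKFB4, PDK1, PGK1 and ME1 are higher in OE CD51 ICD and PC, PGD, TKT, FH, MDH2 and OGDH lower.

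Of the 7 genes at the entry of pyruvate into mitochondria, 3 rose and 1 fell. The rises included a pair of the kinases that inactivate pyruvate dehydrogenase. PDK1 was at 12.9, 15.6 and 13.6 CPM in NC and at 28.1, 28.9 and 24.5 CPM in OE CD51 ICD, 1.94-fold higher (log2 fold change 0.96, SE 0.13, adjusted p = 2.85e-07), with no overlap. PDK3 was at 5.90, 4.89 and 6.22 CPM against 6.58, 8.82 and 7.94 CPM (log2 fold change 0.45, SE 0.19, adjusted p = 0.0428). That call rests on few reads and was lost under 12 of the 21 alternatives. Among them were DESeq2 (adjusted p = 0.0645), leaving out NC replicate 1 (0.0636) or 2 (0.179), and leaving out OE CD51 ICD replicate 2 (0.144) or 3 (0.0731). With the GC trend removed the PDK3 change was 0.24 (adjusted p = 0.254). PDK2, the most abundant kinase of the family, was at 53.7, 52.0 and 66.5 CPM against 48.5, 50.2 and 49.8 CPM and did not pass (log2 fold change -0.21, adjusted p = 0.0743), although its groups did not overlap. It shares 38.6% of its exon bases with SAMD14 on the opposite strand, which had 0.457% as many counts.

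PDHB, the beta subunit of pyruvate dehydrogenase, rose from 62.4, 67.2 and 66.0 CPM to 77.9, 81.4 and 79.3 CPM (log2 fold change 0.29, SE 0.09, adjusted p = 0.00627), and with the GC trend removed the change was 0.11 (adjusted p = 0.2). Its partner PDHA1, the alpha subunit, and DLAT, the acetyltransferase core, did not pass and had log2 fold changes of 0.03 and -0.11. PC (ENSG00000173599, chr11:66848233-66958376), pyruvate carboxylase, refills the TCA cycle with oxaloacetate. It was at 12.2, 10.6 and 12.8 CPM in NC and at 5.46, 5.54 and 6.08 CPM in OE CD51 ICD, 2.08-fold lower (log2 fold change -1.06, SE 0.17, adjusted p = 4.84e-06). This was the deepest fall of the 47, with the groups well apart. PC shares 10.5% of its exon bases with LRFN4 on the opposite strand, whose counts were 582% of those of PC and whose log2 fold change was -0.32.

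None of the 4 pentose phosphate enzymes rose and 2 fell. PGD, 6-phosphogluconate dehydrogenase, forms NADPH and fell from 232, 217 and 222 CPM to 152, 135 and 162 CPM, 1.49-fold (log2 fold change -0.58, SE 0.08, adjusted p = 9.03e-07). TKT, transketolase of the non-oxidative branch, fell from 2195, 2159 and 2204 CPM to 1543, 1463 and 1622 CPM, 1.42-fold (log2 fold change -0.50, SE 0.08, adjusted p = 2.26e-06). In both the highest OE CD51 ICD library stayed below the lowest control. RPIA, ribose 5-phosphate isomerase, was at 7.17, 6.80 and 7.91 CPM against 5.93, 5.06 and 5.29 CPM, groups apart, and missed the threshold (log2 fold change -0.43, adjusted p = 0.0533). TALDO1, transaldolase, which acts beside TKT, had overlapping groups (log2 fold change 0.05, adjusted p = 0.638, 95% interval of the fold 0.929 to 1.15).

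Of 14 listed TCA cycle genes, with the cytosolic forms ACO1, IDH1 and MDH1 among them, 2 rose and 7 fell. FH, fumarase, turns fumarate into malate and was at 110, 115 and 103 CPM in NC and at 65.7, 73.3 and 76.7 CPM in OE CD51 ICD, 1.52-fold lower (log2 fold change -0.61, SE 0.09, adjusted p = 1.03e-06). MDH2, the mitochondrial malate dehydrogenase of the next step, fell from 315, 287 and 310 CPM to 220, 197 and 239 CPM, 1.39-fold (log2 fold change -0.48, SE 0.08, adjusted p = 1.75e-05). OGDH, the 2-oxoglutarate dehydrogenase subunit, fell from 206, 196 and 217 CPM to 158, 148 and 164 CPM, 1.32-fold (log2 fold change -0.40, SE 0.08, adjusted p = 0.00012). The groups did not overlap for any of these 3.

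The other 4 falls were smaller. IDH3B, a subunit of the NAD-dependent isocitrate dehydrogenase, had a log2 fold change of -0.39 (adjusted p = 0.000648), and IDH2, the mitochondrial NADP-dependent enzyme, one of -0.32, from 189, 185 and 168 CPM to 145, 138 and 151 CPM (adjusted p = 0.0014). DLST, the succinyltransferase of the OGDH complex, had a log2 fold change of -0.28 (adjusted p = 0.00745), lost without OE CD51 ICD replicate 1 (adjusted p = 0.0816). CS, citrate synthase, which starts the cycle, had one of -0.26 (adjusted p = 0.0102), lost without NC replicate 3 (adjusted p = 0.0759) or OE CD51 ICD replicate 1 (adjusted p = 0.104). In all 4 the OE CD51 ICD libraries lay below the controls.

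SUCLG1, the alpha subunit shared by both succinyl-CoA ligases, rose from 75.1, 80.8 and 77.4 CPM to 103, 105 and 105 CPM (log2 fold change 0.42, SE 0.08, adjusted p = 9.12e-05), and with the GC trend removed the change was 0.18 (adjusted p = 0.0617). IDH1, the cytosolic NADP-dependent isocitrate dehydrogenase, rose from 32.5, 35.4 and 30.5 CPM to 41.1, 46.4 and 37.1 CPM (log2 fold change 0.34, SE 0.11, adjusted p = 0.00919). Its call did not hold with OE CD51 ICD replicate 2 left out (adjusted p = 0.0521) or the GC trend removed (0.12, adjusted p = 0.237). Both risers were apart from their controls. ACO1, IDH3A, SUCLA2, SUCLG2 and MDH1 did not pass. MDH1, cytosolic malate dehydrogenase, came closest at a log2 fold change of 0.20 (adjusted p = 0.0877), and SUCLG2, the main beta subunit of the ligase, was at 35.6, 35.1 and 32.3 CPM against 34.0, 35.8 and 31.1 CPM. IDH3A shares 38.2% of its exon bases with ACSBG1 on the opposite strand, which had 0 counts, and its low level leaves a wide interval of the fold, 0.751 to 1.21.

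The malic enzymes turn malate into pyruvate. ME1, the cytosolic NADPH-forming one, was at 20.7, 18.2 and 20.6 CPM in NC and at 30.3, 30.9 and 26.3 CPM in OE CD51 ICD, 1.47-fold higher (log2 fold change 0.56, SE 0.12, adjusted p = 0.000231), without overlap. ME2, the mitochondrial one, had overlapping groups (log2 fold change 0.19, adjusted p = 0.197).

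Within families that share a step, the share of the family's FPKM moved between isoenzymes or subunits, given here as a description. LDHA held 96.6, 96.7 and 97.2% of LDHA plus LDHB FPKM in NC and 98.7, 98.9 and 99.1% in OE CD51 ICD. The level of LDHB is uncertain, since 33.4% of its exon bases are shared with AC010197.2, and so are these shares. PDK1 held 7.31, 9.08 and 6.38% of the 3 listed pyruvate dehydrogenase kinases and then 15.7, 15.1 and 13.4%, while PDK2 went from 83.3 ± 1.36% to 72.7 ± 1.39% (SD, n = 3). PFKFB4 held 17.2 ± 0.818% and 22.9 ± 2.53% of PFKFB FPKM, and PFKFB3, the main one, 72.6 ± 0.876% and 67.9 ± 0.511%. The shares did not overlap between groups for any of these.

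Cytosolic forms took a larger share of 2 steps that also run in mitochondria. IDH1 held 9.28, 10.3 and 9.77% of IDH1 plus IDH2 in NC and 14.5, 16.7 and 12.8% in OE CD51 ICD. MDH1 held 14.5, 16.2 and 13.2% of MDH1 plus MDH2 and then 21.3, 25.4 and 18.0%. PFKP went from 65.0 ± 0.202% to 69.8 ± 0.521% of phosphofructokinase, and HK1 from 94.3 ± 0.136% to 96.1 ± 0.0368% of HK1 plus HK2. All 4 were apart between groups, whereas the shares of ALDOC, ENO1, SUCLG2, ME1 and PFKFB2 among the listed members of their families overlapped. Every share rests on annotated gene lengths, such as 3371 bases for ME1 and 16243 for ME2. ME1 held 74.0% of their FPKM in NC, though by mean CPM ME2 at 33.6 was above ME1 at 19.8.

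**Figure D4:**
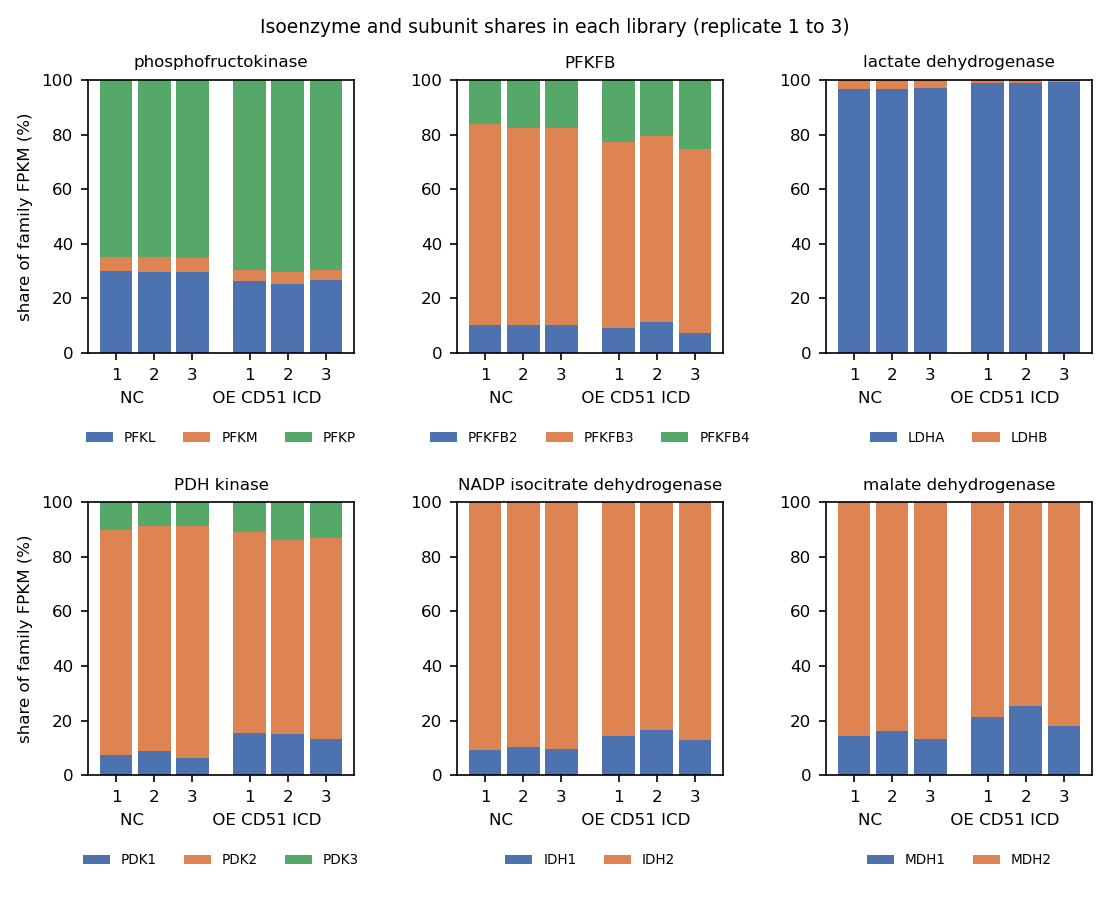
Share of family FPKM in percent (y axis, stacked to 100) held by each isoenzyme or subunit in the 3 NC and 3 OE CD51 ICD libraries (x axis, replicate number). LDHA, PDK1, PFKFB4, PFKP, IDH1 and MDH1 held a larger share in each OE CD51 ICD library than in any NC library. The LDHA share rests on the uncertain level of LDHB.

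Summed by role, the lactate dehydrogenase pair went from 0.0926 ± 0.00985% to 0.211 ± 0.00633% of the FPKM of nuclear protein-coding genes (SD, n = 3). The 4 pentose phosphate genes went from 0.205 ± 0.00311% to 0.168 ± 0.00408%. The 14 listed TCA genes, cytosolic forms included, went from 0.191 ± 0.000805% to 0.159 ± 0.00163%. These 3 sums, and that of the malic enzymes ME1 and ME2 (0.00355% and 0.0050%), did not overlap between groups. ME3, the malic enzyme with the highest level, is not in that sum. The sums for upper glycolysis (0.443% and 0.456%), lower glycolysis (1.89% and 1.78%), pyruvate entry (0.0204% and 0.0214%) and all 47 enzymes (2.84% and 2.79%) overlapped. The total thus differed by less than the spread between libraries while its lactate, pentose phosphate and TCA parts moved apart.

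Another 107 genes of the same pathways were listed by name, of which 79 passed the low-count filter. Of these 20 rose (25.3%) and 26 fell (32.9%), with a median log2 fold change of -0.05. Over all 13787 tested genes 25.2% were higher and 25.8% lower, and those shares also stand beside each list below. Of 13 tested genes of other glycolytic and gluconeogenic steps 4 rose and 3 fell. PGM2L1, which makes glucose 1,6-bisphosphate, rose from 2.20, 1.91 and 1.42 CPM to 12.7, 15.2 and 9.37 CPM, 6.68-fold (log2 fold change 2.74, adjusted p = 1.39e-11), and PGM1, the main phosphoglucomutase between glycolysis and glycogen, rose 1.56-fold (log2 fold change 0.64, adjusted p = 1.18e-07). GALM, galactose mutarotase, fell (log2 fold change -0.79, adjusted p = 3.73e-05), as did HKDC1, a further hexokinase (-0.42, adjusted p = 0.00673), whose call was lost by DESeq2 (0.151) and without NC replicate 3 (0.132) or OE CD51 ICD replicate 2 (0.0525).

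Of 18 tested carriers of glucose, lactate, pyruvate and dicarboxylates 6 rose and 5 fell. SLC2A12, a glucose transporter, rose from 2.20, 4.67 and 2.97 CPM to 9.02, 7.72 and 8.30 CPM (log2 fold change 1.36, adjusted p = 6.93e-06), with 38.9% of its exon bases shared with TBPL1 on the opposite strand, which had 104% as many counts. EMB, embigin, a partner of the lactate carriers, rose 1.84-fold (log2 fold change 0.88, adjusted p = 5.33e-07). SLC25A10, the mitochondrial dicarboxylate carrier, fell from 32.8, 34.3 and 30.1 CPM to 10.6, 10.5 and 14.0 CPM, 2.77-fold (log2 fold change -1.47, adjusted p = 1.27e-10). It shares 46.6% of its exon bases with AC139530.2 on the same strand, which had 0 counts. SLC25A11, the oxoglutarate carrier, fell (log2 fold change -0.73, adjusted p = 3.19e-08), and RNF167 on the opposite strand, with 159% as many counts, overlaps 9.14% of its exon bases. Chosen after its values were seen, as the glucose transporter with the highest level, SLC2A1 was at 856, 875 and 992 CPM in NC and at 1646, 1504 and 1673 CPM in OE CD51 ICD (log2 fold change 0.82, adjusted p = 6.93e-10).

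Of 8 tested accessory genes of pyruvate entry, PDHX, the E3-binding subunit, rose (log2 fold change 0.59, adjusted p = 0.000826) and PDP1, the phosphatase that reactivates the complex, fell (-0.29, adjusted p = 0.0411). The PDP1 call was lost under 8 alternatives, among them leaving out NC replicate 1 (adjusted p = 0.112) or 2 (0.12) and OE CD51 ICD replicate 1 (0.13) or 3 (0.108). Of 8 other pentose phosphate genes 2 rose and 4 fell. The ribose-phosphate pyrophosphokinases, which use ribose 5-phosphate, parted, PRPS1 at a log2 fold change of 0.56 (adjusted p = 1.09e-06) and PRPS2 at -0.60 (adjusted p = 6.48e-05). APIP on the opposite strand, with 42.2% as many counts, overlaps 6.89% of the exon bases of PDHX.

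None of the 9 genes listed as other TCA genes rose and 5 fell. That list also holds ACLY and the malic enzyme ME3, which are not steps of the cycle itself. ACLY fell and ME3 did not pass. SDHA, the flavoprotein of succinate dehydrogenase, went from 217, 216 and 234 CPM to 146, 141 and 163 CPM (log2 fold change -0.57, adjusted p = 8.91e-07). OGDHL, a paralogue of OGDH, had a log2 fold change of -0.62 (adjusted p = 0.00962). Of 8 tested genes of the shuttles and of glutamate entry 1 rose and 4 fell. GOT2, mitochondrial aspartate aminotransferase (log2 fold change -0.40, adjusted p = 0.000159), and GPD2, mitochondrial glycerol phosphate dehydrogenase (-0.45, adjusted p = 0.0233), fell. The GPD2 call was lost without NC replicate 1 (adjusted p = 0.0738) or 3 (0.0515) or OE CD51 ICD replicate 3 (0.178).

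Of 15 tested regulators of these pathways 6 rose and 4 fell. MLXIP, a glucose-sensing transcription factor, rose from 109, 110 and 122 CPM to 340, 321 and 345 CPM, 2.95-fold (log2 fold change 1.56, adjusted p = 5.35e-16). HIF1A, whose protein binds the hypoxia response core and is set mainly by its stability, rose from 206, 161 and 145 CPM to 340, 409 and 284 CPM, 2.02-fold (log2 fold change 1.01, adjusted p = 6.48e-09). MYC fell from 140, 157 and 171 CPM to 96.1, 106 and 94.9 CPM (log2 fold change -0.66, adjusted p = 2.44e-07), and NRF1, a factor for genes of mitochondrial proteins, fell (log2 fold change -0.48, adjusted p = 0.00626), a call lost without OE CD51 ICD replicate 1 (adjusted p = 0.0651). The groups were apart for all 4.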

How the data were processed

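RNA of 6 ARPE19 libraries, 3 NC and 3 OE CD51 ICD by their titles, was extracted with TRNzol reagent or a Quick-RNA kit and made into SMARTER mRNA libraries, per the labels' protocols. The hg38 build comes from the submitters' processing notes, while the sources used here give no aligner, counter or strand use. The authors deposited whole-number counts per gene, and FPKM, which are the deposited counts per gene length and library. Gene coordinates match GENCODE 29 (GRCh38). Count tests used edgeR 4.0.16 under R 4.3.3 (filterByExpr, 13787 genes; TMM; glmQLFTest, two-sided; Benjamini-Hochberg), after tests on simulated data, and SE is the log2 fold change over the root of F. Intervals are 95%. The labels name no molecular identifiers, so the counting interval covers counting error only. The enzymes and lists were chosen with earlier results of these data known. Named genes are, per role, up to 3 called each way with the largest changes at 5 CPM or more, the highest member of each family, GAPDH and PKM, and up to 2 each way per other list. Other enzymes are named without that rule. A few genes that the rule names are not reported here. Alternatives were scaling, test, filter, FPKM on a log2 scale with a pseudocount of 1 or 0.1, replicate block, GC and length trends, pseudogene counts, chromosome 11 and leaving out each library.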

Additional observations from a re-analysis of the deposited data

How the results depend on the processing

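Over 21 alternatives the count of enzymes that rose ran from 10 to 13 and of those that fell from 13 to 19, and leaving out 1 library gave 10 to 12 and 13 to 16. Calls over all genes ran from 2896 to 3801 higher and from 2936 to 4051 lower. With each library's GC trend removed, 6 of the 28 called enzymes were lost. PGK1, PDHB, PDK3, SUCLG1 and IDH1 had been called higher, and PFKL lower. That setting gave 10 enzymes higher and 19 lower. PFKP turned from -0.01 to 0.14 on the log2 scale (adjusted p = 0.0368), the only enzyme past the threshold in the opposite direction. The cause was not tested. Of the 19 enzymes not past the threshold, 12 passed under some alternative and 7 under none. Named pseudogenes held at most 0.911% of the reads of an enzyme and its pseudogenes (TPI1), and adding them left 12 enzymes higher and 16 lower.

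Same-numbered libraries did not deviate together (correlations -0.0503, 0.00134 and 0.051). With 3 libraries a group, that cannot decide if the numbers mark a shared culture or day, which no label states. The highest correlation, 0.0874, was between NC replicate 1 and OE CD51 ICD replicate 2. A fit with the replicate block gave 11 enzymes higher and 16 lower; PDK3 was lost (adjusted p = 0.0537). The biological coefficient of variation was 9.44%, and enzymes under 10 CPM (PDK3, RPIA, IDH3A) have the widest errors.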

Other observations

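PPARGC1A, a coactivator of mitochondrial gene expression listed among the regulators, was chosen here after its values were seen. Its counts summed to 98 in NC and to 2 in OE CD51 ICD, a ratio of 0.0215 once scaled to depth (95% interval 0.00257 to 0.0799, counting error only). The genes that follow were also named outside the rule for named genes. EGLN1 and EGLN3, prolyl hydroxylases that mark HIF proteins for breakdown, had log2 fold changes of 0.51 and 1.04 (edgeR adjusted p = 0.0001 and 0.0099). EGLN3 had few reads, with 29, 13 and 19 counts in NC and 48, 49 and 22 in OE CD51 ICD, and its groups overlapped. The EGLN3 call was lost without NC replicate 2 (0.0559) or OE CD51 ICD replicate 2 (0.0606). EGLN2, of the same family, did not pass (log2 fold change 0.09, adjusted p = 0.722). SLC16A1, a lactate carrier, had a log2 fold change of 0.40 (adjusted p = 0.00185), and 0.18 with the GC trend removed (adjusted p = 0.0766). SLC16A3, the listed lactate carrier with the highest level, was at 1706, 1696 and 1733 CPM in NC. In OE CD51 ICD it was at 1515, 1406 and 1679 CPM. Its groups did not overlap, with a log2 fold change of -0.16 not past the threshold (adjusted p = 0.096). BSG, the carriers' partner, had one of -0.30 (adjusted p = 0.00233), and -0.09 with the GC trend removed (adjusted p = 0.203).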
